A study of Mus musculus with 8 samples.

Results

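The genes described here are 47 members of the TGF-β and BMP pathways, picked by symbol from the 52636 genes of the count matrix: 11 ligands, 8 antagonists, 8 receptors, 8 Smads, 4 latent binding proteins and 8 response genes. Their transcripts were counted by RNA sequencing of polyA RNA from sorted mesenchymal stromal cells of mouse bone marrow that carry the leptin receptor (LEPR+). All mice were of the strain C57BL/6. The control group of 4 libraries came from mice given HEL-Ig, an IgG1 against hen egg lysozyme. The other 4 libraries came from mice given LTβR-Ig, a soluble decoy of the lymphotoxin β receptor. Both agents were injected intravenously at 150 µg once a week for 3 weeks, and the labels give neither the age nor the number of mice behind a library. The p-values below therefore measure the spread between these libraries. The decoy was given to the whole animal, so the cells that respond to it directly cannot be told apart from those that respond to other cells.

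TGF-β and BMP ligands are secreted dimers that bring together type I and type II receptor kinases at the cell surface. TGF-β and activin receptors phosphorylate Smad2 and Smad3, BMP receptors phosphorylate Smad1, Smad5 and Smad9, and both sets act with Smad4 in the nucleus. TGF-β is stored in the matrix in a latent form held by latent TGF-β binding proteins, whereas BMPs are held back by secreted antagonists. In marrow stroma these signals are known for their part in the choice between osteoblast and adipocyte fate and for restraint of blood stem cells.

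Total counts per library ran from 52378101 to 64403177, and Lepr, the marker of the gate, lay between 3159 and 4498 CPM (counts-per-million, scaled by the TMM method) in all 8 libraries. Pecam1 and Cdh5, which encode the excluded antigens CD31 and CD144, ranged from 4.05 to 44.4 and from 1.17 to 20.9 CPM. Transcripts of blood cells remained. The 8 erythroid marker genes took 2.16 to 5.47% of counts in control and 2.17 to 4.15% in LTβR-Ig libraries. The 8 neutrophil marker genes took 0.402 to 0.935% and 0.456 to 0.889%. For comparison, the 9 marker genes of LEPR+ stroma took 2.85 to 3.64% and 3.05 to 4.02%. By log2 fold change, LTβR-Ig over control, 3 of the 9 stroma markers lay above 0, 1 of the 8 erythroid and 0 of the 8 neutrophil markers. An edgeR unadjusted p under 0.05 was reached by 2, 0 and 1 of them. On the first principal component (19.5% of the variance) the libraries numbered 1 and 2 lay on one side of 0 and those numbered 3 and 4 on the other, in both groups. The split was not clean, because LTβR-Ig library 4 lay near 0, at 7.29. The others numbered 3 and 4 lay at 32.1 to 37.1, and those numbered 1 and 2 at -30.5 to -23.0. Over both groups, erythroid markers took 2.16 to 2.61% of counts in the libraries numbered 1 and 2 and 3.41 to 5.47% in those numbered 3 and 4. The 6 B cell markers took 0.14 to 0.266% and 0.0248 to 0.0752%, whereas the neutrophil shares of the sets overlapped. The part of these cells in the split was not tested. The labels do not say what a number shares, so values within each of these sets are given beside the main results.

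Promoter sequences were available for 32 of the 47 genes in RefSeq on GRCm38.p6. Those shown are the 250 bases upstream of the start of the 3 members with an unadjusted p under 0.05 that have an entry, and of the Id genes that hold the letters GGCGCC. That motif is known to be bound by BMP Smads, and CAGAC, read on the other strand as GTCTG, is the core of the Smad binding element. Matches to both are in capitals. Each sequence is written 5′ to 3′ on the strand of its gene. Bmper lies at chr9:23222826-23223075 (plus strand), Bmp5 at chr9:75775115-75775364 (plus), Acvr2a at chr2:48813859-48814108 (plus), Id2 at chr12:25096093-25096342 (minus) and Id4 at chr13:48260866-48261115 (plus).
Bmper: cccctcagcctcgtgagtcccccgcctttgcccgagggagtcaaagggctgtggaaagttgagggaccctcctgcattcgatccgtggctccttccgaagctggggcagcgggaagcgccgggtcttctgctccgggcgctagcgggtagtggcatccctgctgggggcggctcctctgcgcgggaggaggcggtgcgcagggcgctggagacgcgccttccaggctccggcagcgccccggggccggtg
Bmp5: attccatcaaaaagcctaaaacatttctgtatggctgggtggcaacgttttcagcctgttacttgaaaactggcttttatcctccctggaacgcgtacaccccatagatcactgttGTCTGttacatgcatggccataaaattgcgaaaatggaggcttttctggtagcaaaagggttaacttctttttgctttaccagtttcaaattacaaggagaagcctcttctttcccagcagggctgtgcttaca
Acvr2a: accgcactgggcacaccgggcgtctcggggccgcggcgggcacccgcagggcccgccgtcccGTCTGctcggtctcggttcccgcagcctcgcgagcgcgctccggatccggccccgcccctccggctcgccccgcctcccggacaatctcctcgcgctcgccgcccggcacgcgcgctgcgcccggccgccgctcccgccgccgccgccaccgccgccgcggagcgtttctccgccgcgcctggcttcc
Id2: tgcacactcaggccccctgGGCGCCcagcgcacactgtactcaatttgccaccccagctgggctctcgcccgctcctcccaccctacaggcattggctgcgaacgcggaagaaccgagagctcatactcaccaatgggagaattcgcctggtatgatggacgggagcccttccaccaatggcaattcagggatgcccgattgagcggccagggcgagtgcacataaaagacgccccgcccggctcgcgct
Id4: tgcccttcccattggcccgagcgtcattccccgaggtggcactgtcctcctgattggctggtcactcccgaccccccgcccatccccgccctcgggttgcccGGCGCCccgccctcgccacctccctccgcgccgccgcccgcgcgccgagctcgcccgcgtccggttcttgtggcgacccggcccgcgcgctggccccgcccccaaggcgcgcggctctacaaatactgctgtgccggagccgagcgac
The GC content was 71.6% for Bmper, 82% for Acvr2a, 42.8% for Bmp5, 62.8% for Id2 and 75.6% for Id4. The median over all 32851 windows of that length was 52.4%. GGCGCC, which reads the same on both strands, stood in the windows of 11 of the 32 genes, among them Grem1, Bmpr1a, Bmpr2, Smad5 and Tgfbr1 (12 of 40 windows, or 30%, against 9.59% of all windows). CAGAC on either strand stood in those of 16 genes (18 of 40 windows, or 45%, against 42.2%). GGCGCC consists of G and C only, and the share over all windows was not matched for GC content. The shares therefore do not show an excess of the motif beyond GC content. These matches describe letters only and are not bound sites.

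Levels were compared between genes per kilobase of annotated exon. The pathway in these cells was led by the response gene Id3 (375 CPM per kilobase over all 8 libraries), the antagonist Chrdl1 (251), the ligand Bmp6 (133), the receptor Tgfbr3 (114) and the latent binding protein Ltbp2 (109). These 5 were the only members over 100 CPM per kilobase. Another 16 lay between 10 and 100, 18 between 1 and 10, and 8 under 1. Bmpr1b, a BMP type I receptor gene, had no count in any library, which allows at most 0.0573 CPM in the smallest library (3 counts, for counting error only).

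**Figure D1:**
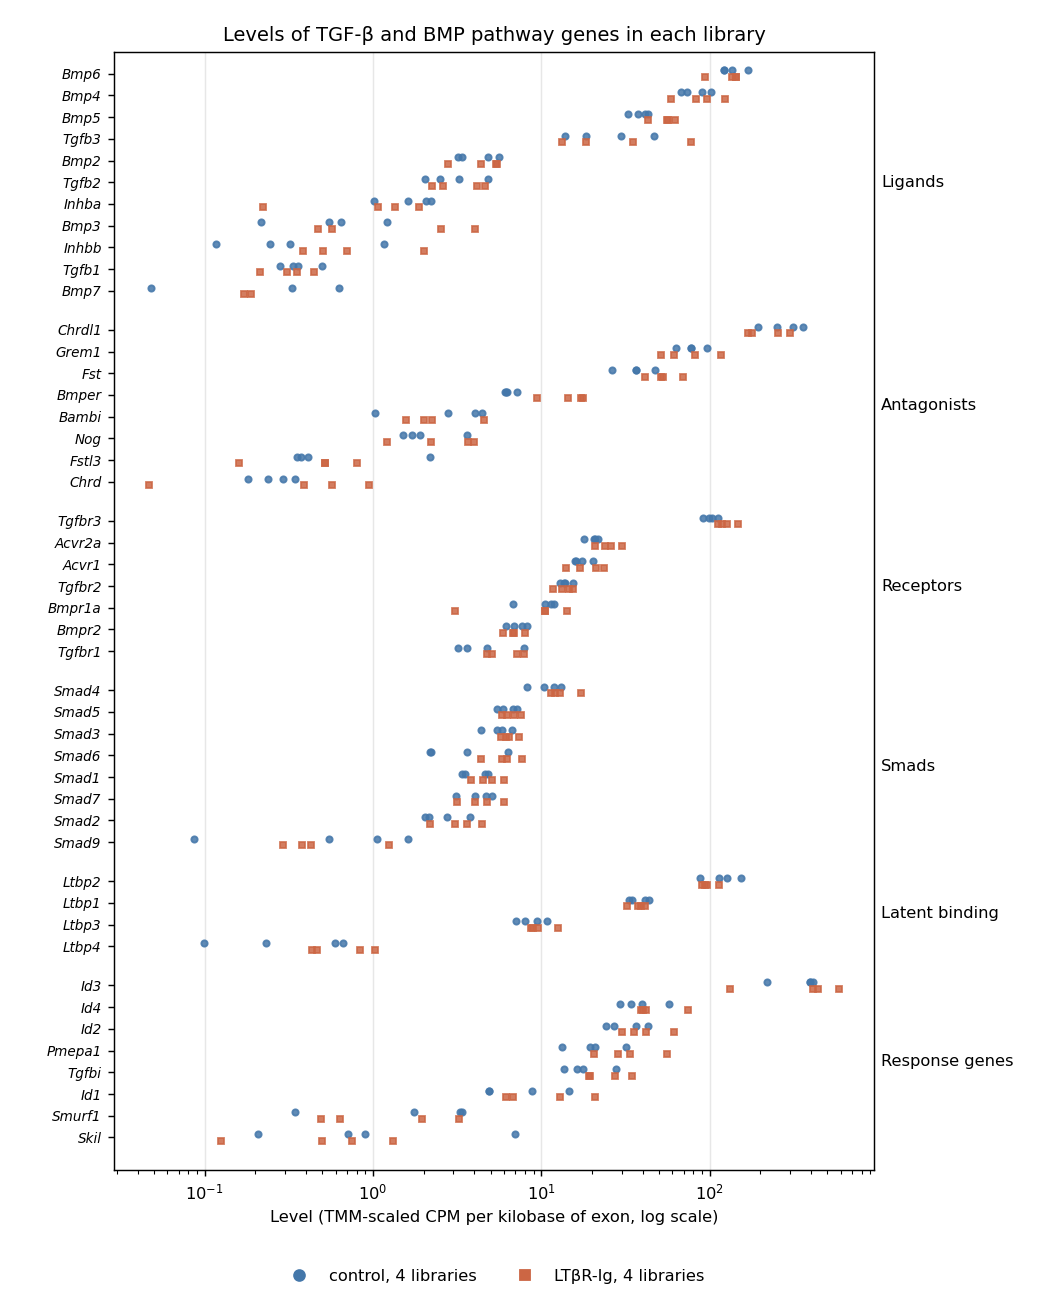
Level of each member in each library, as TMM-scaled CPM per kilobase of exon on a log scale, grouped by class and sorted by the mean over all libraries; circles are control and squares LTβR-Ig libraries. Bmpr1b and the 3 libraries in which Bmp7 was 0 cannot be drawn on this scale. Id3, Chrdl1, Bmp6, Tgfbr3 and Ltbp2 have the highest means. Several low members, such as Bmp7, Inhbb and Smad9, scatter widely between libraries, but the low Tgfb1 does so less than the higher Tgfb3.

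No member passed an adjusted p of 0.05 in the comparison of LTβR-Ig with control by edgeR's quasi-likelihood test. The test asks whether the level of a gene in these sorted libraries differed between the groups. Of all 16045 genes tested, 0% were called higher and 0.0374% lower (6 genes). Before adjustment, 5 of 46 tested members had a p under 0.05 with a higher level after LTβR-Ig, and 0 with a lower one, against 3.39% of all genes higher (544) and 2.93% lower (470). The 5 were Bmper, Bmp5, Tgfbr3, Fst and Acvr2a. In 2 of them, Bmper and Tgfbr3, every LTβR-Ig library lay above every control library. Groups were apart in this way, upward, for 2.36% of all genes tested and, downward, for 2.53% (0 members). The median log2 fold change over the 46 members was 0.15, with 30 above 0 and 16 below, against -0.00 over all genes. In bulk RNA, a different number of cells of a type and a different amount of RNA per cell cannot be told apart.

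**Figure D2:**
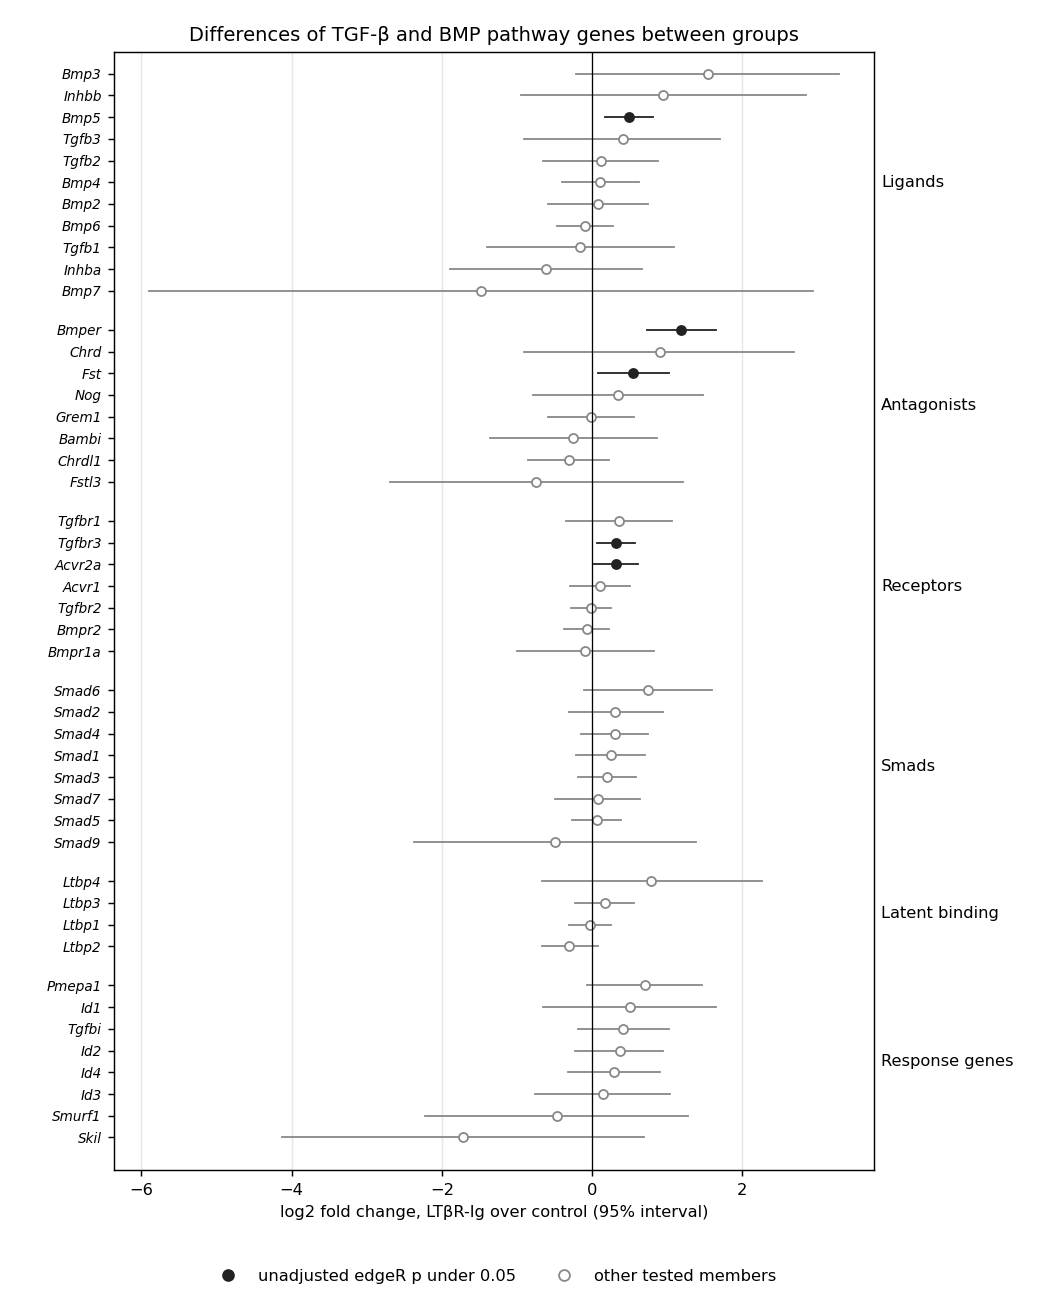
The log2 fold change of each of the 46 tested members, LTβR-Ig over control, with its 95% interval from the edgeR fit, by class. Filled points have an unadjusted p under 0.05; all 5 of them, Bmper, Bmp5, Tgfbr3, Fst and Acvr2a, lie above 0, and no member has an adjusted p under 0.05.

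Among the ligands, Bmp6, which stromal and endothelial cells make and which is known for iron control in the liver, had the highest level. It was at 478, 528, 660 and 478 CPM in control libraries 1 to 4 and at 562, 527, 368 and 559 CPM in LTβR-Ig libraries 1 to 4. The groups overlapped, with control library 3 highest and LTβR-Ig library 3 lowest (log2 fold change -0.09, SE 0.16, 95% interval -0.46 to 0.28). Bmp6 shares 224 exon bases with Txndc5 on the other strand, which had fewer counts (38950 against 241619) and a log2 fold change of 1.20 (edgeR unadjusted p = 0.0518). Bmp4, a bone-forming BMP, came next at 152 to 230 against 132 to 277 CPM, with a log2 fold change of 0.11 (95% interval -0.40 to 0.63).

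Bmp5, a ligand of the same subfamily as Bmp6 and Bmp7 that shapes the skeleton, was at 166, 174, 131 and 151 CPM in control and at 225, 227, 173 and 251 CPM in LTβR-Ig libraries. In 3 of 4 LTβR-Ig libraries it lay above every control, and library 3, at 173 CPM, lay just below the highest control. The means were 156 ± 19 and 219 ± 32.9 CPM (SD, n = 4 each). The log2 fold change was 0.49 (SE 0.14, 95% interval 0.17 to 0.81, edgeR unadjusted p = 0.0068, adjusted p = 0.454). Within the libraries numbered 1 and 2 it was 0.42, and within those numbered 3 and 4 it was 0.59. Bmp5 (chromosome 9, 75775364 to 75900310) shares 1878 exon bases with the antisense gene Gm26903, whose own log2 fold change was -0.29. The strand setting of the counting is not given in the sources used here.

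Bmp3, a BMP that acts against osteogenic BMPs, had the largest log2 fold change of the class at 1.54 (SE 0.77, edgeR unadjusted p = 0.0778). It was at 1.60, 4.03, 4.76 and 8.94 CPM in control and at 3.50, 4.23, 29.7 and 18.7 CPM in LTβR-Ig libraries. LTβR-Ig libraries 3 and 4 lay above every control, and libraries 1 and 2 among the controls. Its log2 fold change was 0.46 within libraries 1 and 2 and 1.82 within 3 and 4, and it was 0.87 without LTβR-Ig library 3. The unadjusted p was under 0.05 with a term for the sets (edgeR adjusted p = 0.675), with the replicate block (adjusted p = 0.747) and with DESeq2 (adjusted p = 0.525). It was also under 0.05 in edgeR when control library 4, LTβR-Ig library 1 or LTβR-Ig library 2 was left out, but not without any other single library. Of 8 osteoblast marker genes, 7 also lay above 0 (median log2 fold change 0.53), and 2 of the 8 had an edgeR unadjusted p under 0.05. The summed share of the 8 was 1.19 to 2.57% of counts in control and 1.29 to 2.10% in LTβR-Ig libraries. None of these markers was at 0 in any library. Their part in the level of Bmp3 was not tested.

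The 3 TGF-β ligand genes had unlike levels per kilobase. Tgfb3 had 31.6 CPM per kilobase, Tgfb2 3.28 and Tgfb1, the isoform stored in platelets and bone matrix, 0.348. Tgfb1 was at 1.41 to 2.51 CPM in control and 1.07 to 2.24 CPM in LTβR-Ig libraries. Tgfb3 varied widely within both groups, from 46.6 to 158 CPM in control and from 44.7 to 262 CPM in LTβR-Ig libraries. Its log2 fold change of 0.41 rested on LTβR-Ig library 4 and was -0.29 without it. Bmp2, an osteogenic BMP, lay at 11.4 to 20.1 against 9.89 to 19.4 CPM (0.08). The activin subunit genes were low: Inhba had a log2 fold change of -0.61 and Inhbb 0.95, with overlapping groups. The value of Inhbb was 1.97 without control library 1 and 0.20 without LTβR-Ig library 3. Bmp7 totalled 309 counts over the 8 libraries and was at 0 in 3 of them.

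The antagonists held the member with the smallest p. Bmper encodes a secreted protein that binds BMPs and, with its context, limits or promotes their signal. It was at 30.1, 29.4, 29.8 and 34.7 CPM in control and at 85.6, 83.1, 69.6 and 45.3 CPM in LTβR-Ig libraries. The controls lay close together, every LTβR-Ig library was above them, and library 4 was the lowest of its group. The means were 31.0 ± 2.47 and 70.9 ± 18.4 CPM (SD, n = 4 each), a fitted fold of 2.29.

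The log2 fold change of Bmper (chromosome 9, 23223076 to 23485200 in mm10) was 1.19 (SE 0.20, 95% interval 0.73 to 1.65, edgeR unadjusted p = 0.000257, adjusted p = 0.125). It was 1.51 within the libraries numbered 1 and 2 and 0.83 within those numbered 3 and 4. DESeq2, which called 1.25% of all genes, called Bmper and no other member (DESeq2 adjusted p = 6.7e-05). Without LTβR-Ig library 4, where 0.0539% of all genes were called, the edgeR adjusted p of Bmper was 0.0282 and its log2 fold change 1.36. Over all libraries left out in turn, the adjusted p ran from 0.0282 to 0.403.

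Fst encodes follistatin, which binds and neutralises activins and some BMPs. It was at 167, 168, 121 and 219 CPM in control and at 237, 320, 244 and 189 CPM in LTβR-Ig libraries. LTβR-Ig libraries 1 to 3 lay above every control, whereas library 4 lay below control library 4. The means were 168 ± 40.1 and 247 ± 54 CPM (SD, n = 4 each). The log2 fold change was 0.55 (SE 0.21, 95% interval 0.08 to 1.02, edgeR unadjusted p = 0.0257, adjusted p = 0.671), with 0.74 and 0.35 within the 2 numbered sets.

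Chrdl1, a chordin-like BMP antagonist, was by far the most abundant of its class. It was at 2101, 2415, 1688 and 1309 CPM in control and at 2020, 1205, 1713 and 1136 CPM in LTβR-Ig libraries. The groups overlapped, with 2 LTβR-Ig libraries below every control (log2 fold change -0.31, SE 0.24, 95% interval -0.85 to 0.23). Grem1, which encodes the BMP antagonist gremlin and marks skeletal progenitors, was second at 78.3 CPM per kilobase with a log2 fold change of -0.02 (95% interval -0.59 to 0.56). Bambi, a decoy receptor gene for BMP and TGF-β, had -0.25. The genes of noggin (Nog, 0.34), chordin (Chrd, 0.90) and the follistatin-like Fstl3 (-0.74) were low, with means under 5 CPM in both groups. Fstl3 shares 1157 exon bases with Prss57 on the other strand, which had more counts than Fstl3 itself.

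**Figure D3:**
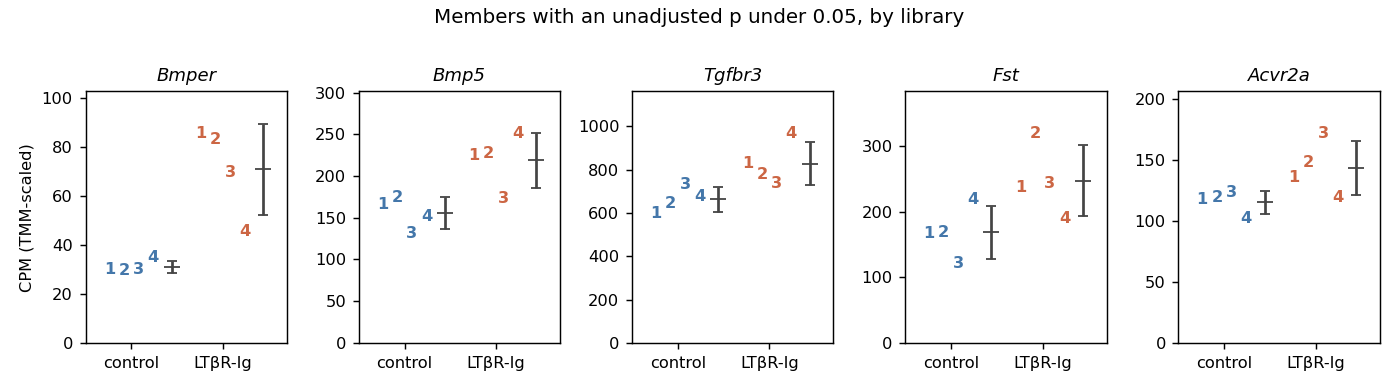
CPM of the 5 members with an unadjusted p under 0.05, in order of p; each digit is the library of that number, in blue for control and orange for LTβR-Ig, with the mean and SD of each group of 4 at its right. Bmper and Tgfbr3 show no overlap, and Bmp5, Fst and Acvr2a each have 1 LTβR-Ig library within the range of the controls.

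Of the receptors, Tgfbr3 had the highest level. It encodes betaglycan, a co-receptor that presents TGF-β2 to its receptors and binds inhibin and BMPs. It was at 596, 646, 733 and 676 CPM in control and at 827, 779, 738 and 968 CPM in LTβR-Ig libraries. The groups did not overlap, but LTβR-Ig library 3 lay only a little above control library 3. The means were 663 ± 57.2 and 828 ± 100.3 CPM (SD, n = 4 each). The log2 fold change was 0.32 (SE 0.11, 95% interval 0.07 to 0.57, edgeR unadjusted p = 0.0181, adjusted p = 0.625), with 0.38 and 0.28 within the 2 numbered sets.

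Acvr2a, which encodes a type II receptor for activins and BMPs, had 117, 119, 124 and 102 CPM in control and 136, 148, 172 and 119 CPM in LTβR-Ig libraries. LTβR-Ig library 4 lay among the controls and the other 3 above them. The log2 fold change was 0.32 (SE 0.13, 95% interval 0.02 to 0.61, edgeR unadjusted p = 0.0394, adjusted p = 0.751), with 0.27 and 0.36 within the sets. Acvr2a shares 446 exon bases with Orc4 on the other strand, which had a log2 fold change of -0.06.

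The intervals of the other 5 tested receptors all included 0. Tgfbr2, the type II TGF-β receptor gene, had -0.02 (95% interval -0.28 to 0.25) at 114 ± 8.22 against 113 ± 13.5 CPM (SD, n = 4 each). Bmpr2, the type II BMP receptor gene, had -0.07 (-0.37 to 0.22), and Acvr1, the gene of the type I receptor ALK2, had 0.11 (-0.29 to 0.51). Tgfbr1, the type I TGF-β receptor gene, had 0.36 with an interval of -0.34 to 1.06. Bmpr1a, a type I BMP receptor gene, was at 19.6 CPM in LTβR-Ig library 2 against 43.1 to 90.9 CPM in the other 7. Its log2 fold change of -0.09 was 0.21 without that library.

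No Smad gene had an unadjusted p under 0.05 with all libraries in the edgeR fit, and their levels were moderate, from 0.708 (Smad9) to 12.2 CPM per kilobase (Smad4). Smad4, the shared partner of both branches, was at 30.5, 38.5, 48.7 and 44.3 CPM in control and at 42.2, 64, 44.9 and 47.9 CPM in LTβR-Ig libraries. Only library 2 of the LTβR-Ig group lay above every control (log2 fold change 0.30, SE 0.19, 95% interval -0.15 to 0.74). The TGF-β branch genes Smad2 and Smad3 had 0.31 and 0.20, and the BMP branch genes Smad1, Smad5 and Smad9 had 0.25, 0.06 and -0.49. In all, 7 of 8 lay above 0, with a class median of 0.23.

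The inhibitory Smads, which both branches induce as feedback, were both low to moderate in level. Smad6, which mainly limits BMP signals, was at 7.11, 11.6, 6.99 and 20.4 CPM in control and at 18.6, 24.6, 19.96 and 13.9 CPM in LTβR-Ig libraries. Control library 4 lay within the range of the LTβR-Ig libraries and the other 3 controls below it (log2 fold change 0.75, SE 0.38, edgeR unadjusted p = 0.0796, adjusted p = 0.874). Without control library 4 it was 1.17, with an unadjusted p under 0.05, as it also had with limma-voom (adjusted p = 0.424 and 0.608). Smad7, which limits TGF-β signals too, had 0.08 (95% interval -0.49 to 0.64). Whether the log2 fold changes of Smad6 and Smad7 differ was not tested.

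Among the latent binding proteins, Ltbp2, a matrix protein of elastic fibres that does not itself bind latent TGF-β, had the highest level. It was at 1038, 1254, 933 and 716 CPM in control and at 926, 733, 786 and 767 CPM in LTβR-Ig libraries. Control library 4 was the lowest of all 8, so the groups overlapped (log2 fold change -0.30, SE 0.17, 95% interval -0.67 to 0.08, edgeR unadjusted p = 0.109, adjusted p = 0.927). Without control library 4, Ltbp2 was the single member that was lower at an unadjusted p under 0.05. Ltbp1, which anchors latent TGF-β in the matrix, had -0.03 (95% interval -0.30 to 0.25) at 408 ± 53.9 against 401 ± 40.7 CPM (SD, n = 4 each). Ltbp3, a latent TGF-β carrier needed in bone, had 0.17 (-0.23 to 0.56), and Ltbp4 had 0.79 at under 7 CPM in every library.

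Response genes had a class median log2 fold change of 0.33, with 6 of 8 above 0, and none had an unadjusted p under 0.05 with all libraries in the edgeR fit. The class median was 0.11 without LTβR-Ig library 3. In that library megakaryocyte markers took 0.364% of counts, against 0.0621 to 0.263% in control and 0.0924 to 0.209% in the other LTβR-Ig libraries. All 10 of those markers lay above 0, with 0 of them at an edgeR unadjusted p under 0.05, and none was at 0 in any library. All 9 endothelial markers lay above 0 too, with 0.00656 to 0.0219% of counts in control and 0.00547 to 0.0372% in LTβR-Ig libraries, and Tek and Flt1 were each at 0 in some library. No endothelial marker had an edgeR unadjusted p under 0.05. LTβR-Ig library 3 was also the highest of its group for macrophage (0.112%), neutrophil (0.889%), erythroid (4.15%) and chondrocyte (0.0234%) markers. It was not the highest for LEPR+ stroma, osteoblast or B cell markers. Its neutrophil and erythroid shares lay within the range of the controls. The part of any of these cells in the response genes was not tested.

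The Id genes are direct targets of BMP Smads and encode inhibitors of basic helix-loop-helix factors. Id3 was at 740, 709, 393 and 707 CPM in control and at 738, 1053, 789 and 238 CPM in LTβR-Ig libraries. Within each group a single library, control 3 and LTβR-Ig 4, lay far below the others (log2 fold change 0.14, SE 0.40, 95% interval -0.76 to 1.04). Id1 had 0.50 at 5.64 to 17.0 against 7.20 to 24.3 CPM, and Id4 had 0.29. Id2 was at 59.3, 66.3, 88.8 and 105 CPM in control and at 73.3, 87.0, 151 and 102 CPM in LTβR-Ig libraries. Its libraries numbered 3 and 4 were above those numbered 1 and 2 within each group, and its log2 fold change of 0.37 was 0.36 and 0.38 within the sets. With a term for the sets, Id2 had an unadjusted edgeR p of 0.039 (adjusted p = 0.675).

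The other response genes were also mixed. Pmepa1, which TGF-β induces and which dampens its signal, was at 65.6, 95.9, 103 and 156 CPM in control and at 141, 276, 101 and 166 CPM in LTβR-Ig libraries. It had 0.70 (SE 0.34, edgeR unadjusted p = 0.0712, adjusted p = 0.848), with 1.37 within libraries 1 and 2 and 0.04 within 3 and 4. Tgfbi, a matrix protein gene named for its induction by TGF-β, had 0.41 (95% interval -0.19 to 1.02). Skil encodes a nuclear repressor of Smads and had a log2 fold change of -1.72. It was at 67.7 CPM in control library 3 and ran from 1.22 to 12.7 CPM in the remaining 7, and without that library the value was 0.15. Smurf1, a ubiquitin ligase gene that removes BMP Smads, was counted in the response class although it is a regulator of the pathway. It ran from 2.18 to 21.5 CPM in control and from 3.13 to 20.4 CPM in LTβR-Ig libraries (-0.47).

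**Figure D4:**
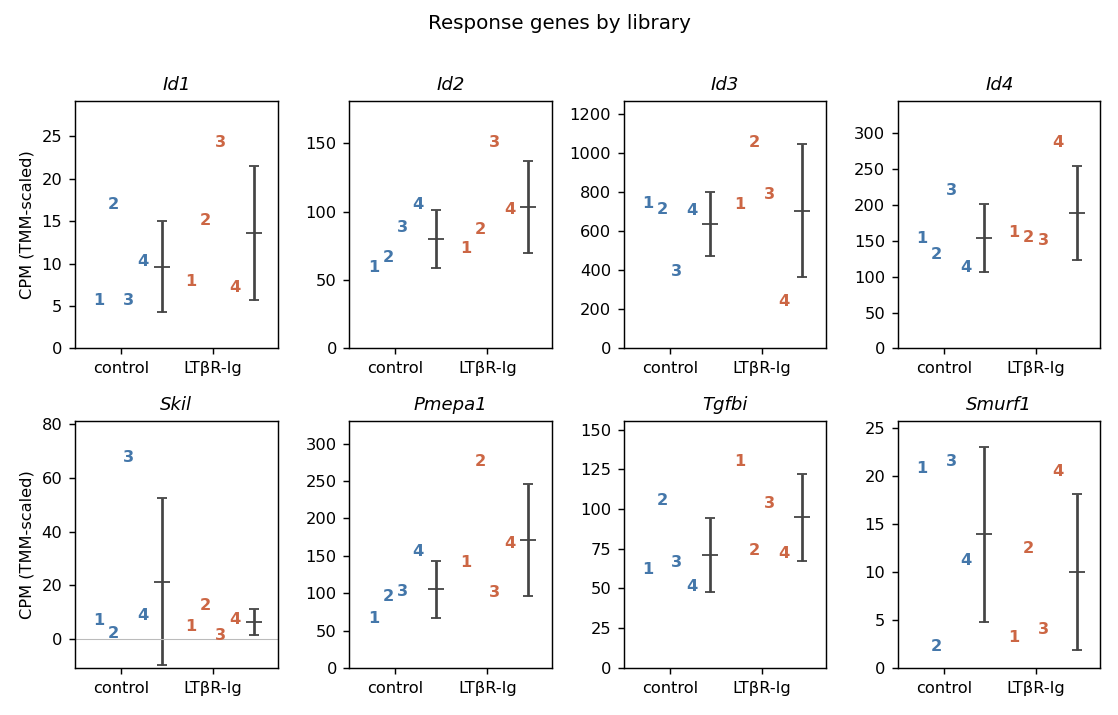
CPM of the 8 response genes; each digit is the library of that number, in blue for control and orange for LTβR-Ig, with the mean and SD of each group of 4 at its right. The groups overlap in all 8, and single libraries stand far from their group for Id3, Id4 and Skil.

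A further 78 genes of the pathways were listed by their known role, with earlier results of these data known, so their direction is no independent evidence. Of the 77 found in the matrix, 60 were tested. None passed the edgeR threshold over all genes. With the unadjusted p, 10 passed 0.05 upward and 0 downward, against 3.39% and 2.93% of all genes. In 7 every LTβR-Ig library exceeded all controls and in 0 every one was below them, against 2.36% and 2.53% of all genes. The median log2 fold change was 0.26, with 50 above 0, against -0.00 and 7980 of 16045 over all genes. By class, genes of matrix storage and activation of TGF-β had a median of 0.49, and all 10 tested lay above 0. Other classes also lay mostly above 0: receptors 7 of 7 (median 0.19), regulators 13 of 14 (0.12) and response genes 9 of 11 (0.33). Ligands had 7 of 11 (0.07) and antagonists 4 of 7 (0.06).

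The 6 with the smallest p began with Fstl1, a secreted follistatin-like glycoprotein gene, at 2942, 3167, 2777 and 3076 CPM in control and 4424, 4497, 4495 and 4540 CPM in LTβR-Ig libraries. The groups lay far apart compared with their spread (log2 fold change 0.59, SE 0.07, edgeR adjusted p = 0.0506). The ligand genes Gdf10 and Gdf11 followed the same order of groups without overlap. Gdf10, also called BMP3B and close to BMP3 in sequence, was at 22.1, 31.5, 38.4 and 47.7 CPM in control and at 90.9, 87.4, 76.3 and 55.6 CPM in LTβR-Ig libraries. Its log2 fold change was 1.15 (SE 0.25, edgeR adjusted p = 0.23, DESeq2 adjusted p = 0.00371). As for Bmper, LTβR-Ig library 4 was the lowest of its group and control library 4 the highest of its own.

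Gdf11, an activin-like ligand gene, had a log2 fold change of 0.95 (SE 0.26, edgeR adjusted p = 0.435) at 11.2 to 21.8 against 23.2 to 41.4 CPM. Hey1, a transcription factor gene induced by BMP and by Notch, had 1.12 (SE 0.31, edgeR adjusted p = 0.436) at 4.85 to 7.45 against 8.02 to 18.9 CPM. Itgb1, the integrin β1 gene, had 0.30 (SE 0.08, edgeR adjusted p = 0.423) with controls between 537 and 551 CPM and LTβR-Ig libraries between 632 and 743 CPM. Fbn1 encodes fibrillin-1, the microfibril that latent binding proteins attach to. It had 0.50 (SE 0.15, edgeR adjusted p = 0.478), and only LTβR-Ig library 3 fell within the range of the controls.

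**Figure D5:**
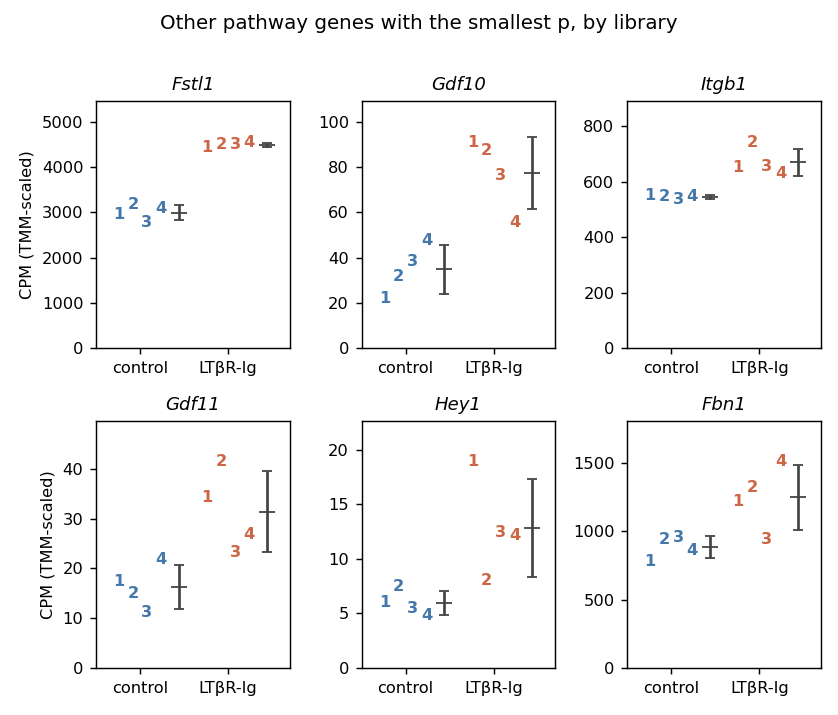
CPM of the 6 other pathway genes with the smallest p; each digit is the library of that number, in blue for control and orange for LTβR-Ig, with the mean and SD of each group of 4 at its right. The groups do not overlap for Fstl1, Gdf10, Itgb1, Gdf11 and Hey1, and for Fbn1 LTβR-Ig library 3 lies within the controls.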

How the data were processed

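Live LEPR+ cells without CD45, Ter119, CD31 and CD144 were sorted from digested marrow in 2 successive rounds, the second into lysis buffer (labels' protocols). The reads were pairs of 76 bp. The authors deposited raw counts per gene, made with HISAT2 and HTSeq on mm10 per the submitters' processing notes. Neither tool versions nor the annotation or strandedness used in counting is given in the sources used here. Groups came from sample titles. IDs were matched to GENCODE M21 (GRCm38, the same assembly as mm10) without version suffix for 52489 of 52636 genes, which also gave coordinates and exon lengths. The members and lists were chosen with earlier results of these data known.

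edgeR 4.0.16 in R 4.3.3 was run with TMM scaling, filterByExpr (minimum count 10, minimum total 15) and a robust quasi-likelihood F test on all 8 libraries. Benjamini-Hochberg adjustment covered the 16045 genes tested, and an adjusted p under 0.05 was the call. The test was also run on simulated counts with independent libraries and no difference between the numbered sets. That run cannot show how the test behaves with such sets, and no result here rests on it. The standard error is the log2 fold change over the square root of F. Members with an unadjusted p under 0.05, with groups apart or with the highest level of their class were described in full, together with the 6 other pathway genes of smallest p. Members described beyond that rule, such as Bmp3, Smad6, Id2 and Pmepa1, were chosen after their values were seen. Of the other pathway list, 1 symbol did not match.

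Alternatives were other scaling factors, DESeq2 1.42.0, limma-voom 3.58.1 with sample weights, no filter, a stricter filter, a replicate block and the omission of each library in turn. A term for the libraries numbered 1 and 2 against 3 and 4, and each set alone, were chosen after seeing the data. Replicates within each group were compared by chi-square over genes (140 to 265 per degree of freedom), so no library was a copy of another of its group. Libraries of different groups were not compared in this way. Same-numbered libraries had correlations of their deviations from group means of 0.106, 0.056, 0.0841 and -0.000816, so the numbers were not taken to pair the samples.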

Additional observations from a re-analysis of the deposited data

Results flagged for a closer look

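In 6 of 104 gene and group pairs, the gap between 1 library and the nearest of the other 3 took most of the range of the group, which chance gives for about 1 in 20 groups. Bmper was at 34.7 CPM in control library 4 against 29.4 to 30.1 CPM. Fstl3 was at 5.35 CPM in control library 1 against 0.87 to 0.999 CPM. Smad9 was at 6.73 CPM in LTβR-Ig library 1 against 1.57 to 2.3 CPM. Id3 was at 393 CPM in control library 3 against 707 to 740 CPM. Id4 was at 287 CPM in LTβR-Ig library 4 against 151 to 161 CPM. Skil was at 67.7 CPM in control library 3 against 2.01 to 8.72 CPM.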

How the results depend on the processing

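The count of all genes past the threshold was 6, and it was 22 with the stricter filter, 1 with the replicate block, 201 with DESeq2, 14 with limma-voom and 2 to 9 without each library (2 without control library 3). The count of members past it was 0, and it was 1 with DESeq2 and 0 to 1 without each library, each time Bmper. Its edgeR adjusted p was 0.426 with the replicate block. Of the other pathway genes 0 passed, against 1 with DESeq2 size factors in edgeR, no filter, the stricter filter or limma-voom, each time Fstl1, and 2 with DESeq2, which added Gdf10. Members at an unadjusted p under 0.05 numbered 5 higher and 0 lower, and 3 to 7 higher and 0 to 1 lower without each library. The low of 3 came without control library 1, where Fst, Tgfbr3 and Acvr2a were lost and Inhbb entered. Fst was also lost without control library 2 or 3 or LTβR-Ig library 2, and Acvr2a without control library 2 or 4, LTβR-Ig library 2 or 3, or with limma-voom. Genes that entered in some alternative were Bmp3, Chrd, Id2, Pmepa1, Smad6, Tgfbi and Tgfbr1. Members with groups apart numbered 2 upward and 0 downward, and 2 to 4 and 0 to 1 without each library. Class medians were 0.11 for ligands, 0.16 for antagonists, 0.11 for receptors, 0.23 for Smads and 0.07 for latent binding proteins. These moved by less than their spread between libraries (SD 0.14 to 0.24), but some changed sign. Without LTβR-Ig library 4, ligands had -0.07 and receptors -0.01. With the stricter filter, antagonists had -0.02 and latent binding proteins -0.03. The median of response genes, 0.33, moved by more than its spread and was 0.11 to 0.40 without each library. The cause was not tested.

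The log2 fold changes of Bmper, Bmp5, Fst, Tgfbr3, Acvr2a and of the 6 other pathway genes kept their direction under all alternatives run. The sign of 18 members reversed without single libraries, with log2 fold changes in these ranges: Tgfb1 -0.33 to 0.02, Tgfb2 -0.07 to 0.40, Tgfb3 -0.29 to 0.81, Bmp2 -0.03 to 0.25, Bmp4 -0.07 to 0.27, Bmp6 -0.14 to 0.04, Grem1 -0.28 to 0.15, Fstl3 -1.05 to 0.39, Tgfbr2 -0.08 to 0.06, Bmpr1a -0.35 to 0.21, Bmpr2 -0.15 to 0.00, Acvr1 -0.01 to 0.23, Smad7 -0.09 to 0.22, Smad9 -1.16 to 0.07, Ltbp1 -0.09 to 0.04, Id3 -0.12 to 0.43, Skil -2.27 to 0.15 and Smad5 -0.00 to 0.13. With limma-voom, Id3 also reversed, to -0.09. Between the libraries numbered 1 and 2 and those numbered 3 and 4, 21 of 45 members were above 0 in both sets, 6 below 0 in both and 18 neither. A mean under 5 CPM limits the precision of 9 members.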
